A study of Mus musculus with 4 samples.

Results

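Voltage-gated potassium (Kv) channels of the Kcna, Kcnb, Kcnc and Kcnd families were examined in the mouse prefrontal cortex (PFC) after knockdown of Ash1l, the gene for a histone methyltransferase. The 8 members, taken by name with earlier results of these data known, were Kcna1, Kcna2, Kcnb2, Kcnc1, Kcnc2, Kcnc4, Kcnd2 and Kcnd3. They were part of 15 pore-forming Kcna to Kcnd genes analysed here and 23420 gene symbols in the tables. Each of the 4 samples was a bulk lysate of PFC from C57BL6/J mice, and each was sequenced as a stranded total RNA library after removal of ribosomal RNA. The 2 control samples came from mice given a GFP-AAV9 virus, and the 2 Ash1L shRNA samples from mice given an AAV9 virus carrying a short hairpin RNA against Ash1l. The series' design text puts the age of both groups at 6 to 8 weeks.

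Some features limit these groups as a model. The hairpin was driven by a U6 promoter, which is not restricted to a cell type, and both groups carried a GFP virus. The labels call the control virus GFP-AAV9, whereas the study's methods describe a scrambled hairpin. The study reports seizures and early death in mice given the Ash1L hairpin. In stained PFC sections it found no significant loss of neurons marked by NeuN. The study's methods describe tissue punched from the GFP-labelled area and pooled over several mice per sample, while the design text counts 3 knockdown and 2 control mice, so the number of mice behind a sample is uncertain and P values measure only the spread between these samples.

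Kv channels open when the membrane is depolarized and let potassium leave the cell, which ends the action potential and sets how soon the next may follow. A channel is a tetramer of pore-forming subunits of the same family. Kcna (Kv1) channels open near threshold and are concentrated in axons and terminals, Kcnb (Kv2) channels carry slow delayed rectifier current at the soma and proximal dendrite, Kcnc (Kv3) channels open at strongly depolarized voltages and close fast enough for high-frequency firing, and Kcnd (Kv4) channels carry the rapidly inactivating A-type current of dendrites. Kcnc1 and Kcnc2 are known for their high expression in parvalbumin-positive fast-spiking interneurons.

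The selectivity filter is the part of the pore that passes potassium and excludes sodium. It is shown for every member because all of them share it while its codons tell the genes apart. The lines below give 39 bases of the coding strand of a protein-coding transcript of GENCODE vM21 (GRCm38), with the 15 bases that encode the filter in capitals.
Kcna1: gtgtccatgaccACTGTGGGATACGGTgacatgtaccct
Kcna2: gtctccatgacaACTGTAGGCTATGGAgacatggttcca
Kcnb2: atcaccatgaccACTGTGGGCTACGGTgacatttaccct
Kcnc1: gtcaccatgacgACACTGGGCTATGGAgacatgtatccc
Kcnc2: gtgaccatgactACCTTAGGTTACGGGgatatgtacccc
Kcnc4: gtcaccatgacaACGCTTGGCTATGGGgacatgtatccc
Kcnd2: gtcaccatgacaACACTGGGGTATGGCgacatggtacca
Kcnd3: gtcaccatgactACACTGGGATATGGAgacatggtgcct

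Read as codons, the second residue of the filter was valine in Kcna1, Kcna2 and Kcnb2 and leucine in the Kcnc and Kcnd members. The 8 stretches were all different. Over whole exons, the longest exact run that a member shared with another of these 15 genes was 47 bases, between Kcna2 and Kcnc1, followed by 36 bases between Kcnc1 and Kcnd1. How reads that match more than 1 gene were counted is not given in the sources used here. The study's methods describe paired-end reads, and only a pair lying wholly within such a run would match both genes exactly.

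The samples held 14251190 (control 1), 35764874 (control 2), 27479339 (Ash1L shRNA 1) and 20106708 (Ash1L shRNA 2) assigned read counts. Replicates differed by more than counting noise, with a chi-square per degree of freedom of 14.8 between the controls and 42.3 between the Ash1L shRNA samples. Ash1l itself stood at 245 and 290.1 CPM (the gene's share of its TMM-scaled library) in the controls and at 216 and 138 CPM in the Ash1L shRNA samples. Its log2 fold change was -0.60, with an adjusted P of 0.275 in edgeR's quasi-likelihood test (unadjusted P of 0.0362). The estimate ran from -0.97 without Ash1L shRNA 1 to -0.31 without Ash1L shRNA 2, and Ash1l was no longer DOWN without control 1, without control 2, without Ash1L shRNA 2 or with the gene length offset. The shRNA samples were below both controls for Ash1l, and Ash1L shRNA 2 was the lower of them. By other methods, quantitative PCR and Western blot, the study reports significantly less Ash1L mRNA and protein in PFC given the hairpin. Slc17a7, the vesicular glutamate transporter that marks cortical excitatory neurons, was at 924 and 1069 CPM in the controls. In Ash1L shRNA 1 and 2 it was at 866.5 and 754 CPM (log2 fold change -0.30, no call). Across 16232 genes tested, 1344 (8.28%) were DOWN and 1397 (8.61%) were UP, where DOWN and UP mean an unadjusted P below 0.05 and a change of at least 1.2-fold. Just 1 of those genes had an adjusted P below 0.05, against 2746 with an unadjusted P below 0.05 and 420 at the adjusted limit in DESeq2. No member passed the adjusted limit with either tool.

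Of the 8 Kv members, 5 were DOWN and none was UP in edgeR's test, against 8.28% and 8.61% of all genes tested. The members were chosen with earlier results of these data known, so the shares and medians here describe them and test no enrichment. The DOWN members were Kcna2, Kcnb2, Kcnc1, Kcnc2 and Kcnd2, whereas Kcna1, Kcnc4 and Kcnd3 passed in neither direction. All 8 members passed the filter on low counts. In the same 5 members both Ash1L shRNA samples lay below both controls, an arrangement found in 26.8% of the genes tested, and no member had both shRNA samples above both controls, as 26.5% of genes did. The median log2 fold change of the members was -0.37, against 0.00 over all genes tested. Measured from the control mean, the members' median log2 difference was -0.26 in Ash1L shRNA 1 and -0.47 in Ash1L shRNA 2, so the distance from control was not equal in the pair of shRNA samples.

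**Figure D1:**
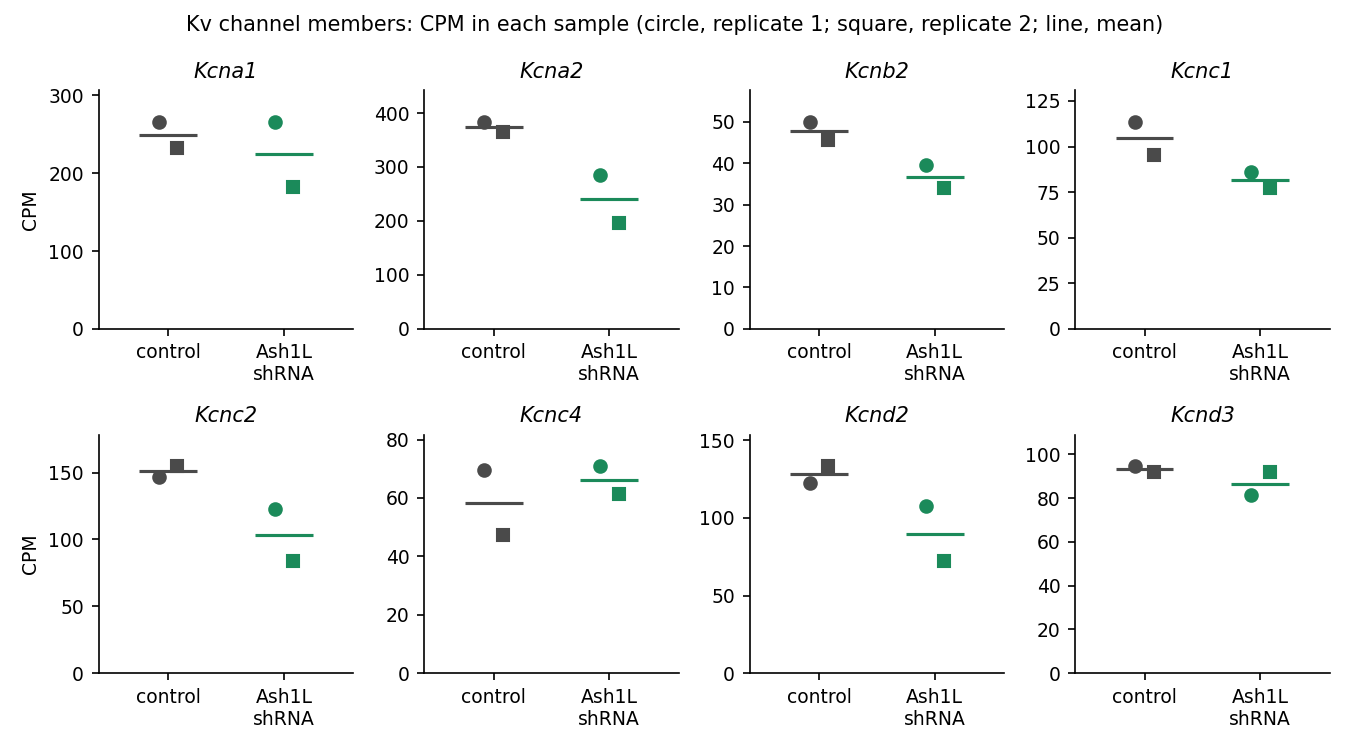
Each panel plots the CPM (vertical axis, from 0) of 1 Kv member in the 2 control samples (grey) and the 2 Ash1L shRNA samples (green), with circles for replicate 1, squares for replicate 2 and a line at the group mean. Kcna2, Kcnb2, Kcnc1, Kcnc2 and Kcnd2 show both green points below both grey ones, while the points of Kcna1, Kcnc4 and Kcnd3 overlap.

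Kcna2 (Kv1.2, a subunit of axonal low-threshold channels) had the most negative estimate of the 8 members. It lies on chromosome 3 at 107101146 to 107115005 (GRCm38, plus strand) and was measured over its 5 exon blocks. Its level was 384 and 364 CPM in the controls and 286 and 196 CPM in the Ash1L shRNA samples. The 2 controls were close to each other, and the shRNA samples were both lower and farther apart. The log2 fold change was -0.63 (SE 0.19, 95% interval -1.09 to -0.18), a decrease with an unadjusted P of 0.0141 and an adjusted P of 0.260 in edgeR. DESeq2 gave an adjusted P of 0.0616, and over all settings with 4 samples the adjusted P ran from 0.0616 to 0.390.

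Kcna1 (Kv1.1, which assembles with Kv1.2 in many axons) did not follow Kcna2. The gene lies on chromosome 6 at 126640397 to 126646384 (minus strand). It stood at 266 and 232 CPM in the controls and at 266 and 182 CPM in the shRNA samples. Ash1L shRNA 1 was level with the higher control and Ash1L shRNA 2 was below both, so the groups overlapped. The log2 fold change was -0.15 (SE 0.19, 95% interval -0.62 to 0.32), with an adjusted P of 0.716 in edgeR.

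Kcnb2 (Kv2.2, a delayed rectifier of the soma) was the least abundant member. Its span on chromosome 1 runs from 15287254 to 15723750 (plus strand). It measured 50.0 and 45.5 CPM in the controls and 39.5 and 34.0 CPM in the shRNA samples. All 4 values kept the groups apart, and the spread within each group was 3.17 CPM in the controls and 3.94 CPM in the shRNA samples (SD, n = 2). Its log2 fold change was -0.38 (SE 0.14, 95% interval -0.70 to -0.05), with an unadjusted P of 0.0309 and an adjusted P of 0.266 in edgeR.

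Among the fast-spiking channel genes, Kcnc1 (Kv3.1, chromosome 7 at 46396497 to 46438704, plus strand) was DOWN. It stood at 114 and 95.4 CPM in the controls against 85.8 and 77.4 CPM after Ash1L shRNA. The higher shRNA value was not far below the lower control value. The log2 fold change was -0.35 (SE 0.13, 95% interval -0.68 to -0.03), with an unadjusted P of 0.0352 and an adjusted P of 0.273 in edgeR.

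Kcnc2 (Kv3.2, chromosome 10 at 112271121 to 112467024, plus strand) was DOWN as well. It measured 147 and 155 CPM in the controls and 123 and 83.9 CPM in the shRNA samples. The controls had an SD of 5.70 CPM (n = 2), and Ash1L shRNA 2 was far below the other samples. Its log2 fold change was -0.55 (SE 0.19, 95% interval -1.0 to -0.09), with an unadjusted P of 0.0266 and an adjusted P of 0.262 in edgeR.

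Kcnc4 (Kv3.4, the rapidly inactivating Kv3 subunit, chromosome 3 at 107438303 to 107459552, minus strand) was the sole member with a positive estimate. Its level was 69.4 and 47.2 CPM in the controls and 71.0 and 61.2 CPM in the shRNA samples. Control 2 was the lowest of the 4 samples and the groups overlapped. The log2 fold change was 0.19 (SE 0.20, 95% interval -0.30 to 0.67), with an adjusted P of 0.653 in edgeR. Thus 2 of the 3 Kcnc members were DOWN and the third overlapped between groups.

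Kcnd2 (Kv4.2, the main dendritic A-type subunit of pyramidal neurons) was DOWN. It is a gene of 514.3 kb on chromosome 6, from 21215503 to 21729805 (plus strand). It stood at 123 and 134 CPM in the controls and at 108 and 72.2 CPM in the shRNA samples. As in Kcnc2, Ash1L shRNA 1 was moderately and Ash1L shRNA 2 strongly below the controls. The log2 fold change was -0.51 (SE 0.20, 95% interval -0.99 to -0.04), with an unadjusted P of 0.0387 and an adjusted P of 0.279 in edgeR.

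Kcnd3 (Kv4.3, an A-type subunit) did not pass the test. Its chromosome 3 span runs from 105452330 to 105674002 (plus strand). It measured 94.7 and 91.7 CPM in the controls and 81.3 and 92.0 CPM in the shRNA samples. Here Ash1L shRNA 2, the sample in which Kcnd2 was lowest, lay between the controls. The log2 fold change was -0.11 (SE 0.12, 95% interval -0.39 to 0.18), with an adjusted P of 0.664 in edgeR. An antisense transcript, Kcnd3os, overlaps 1.72% of the exonic length of Kcnd3.

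**Figure D2:**
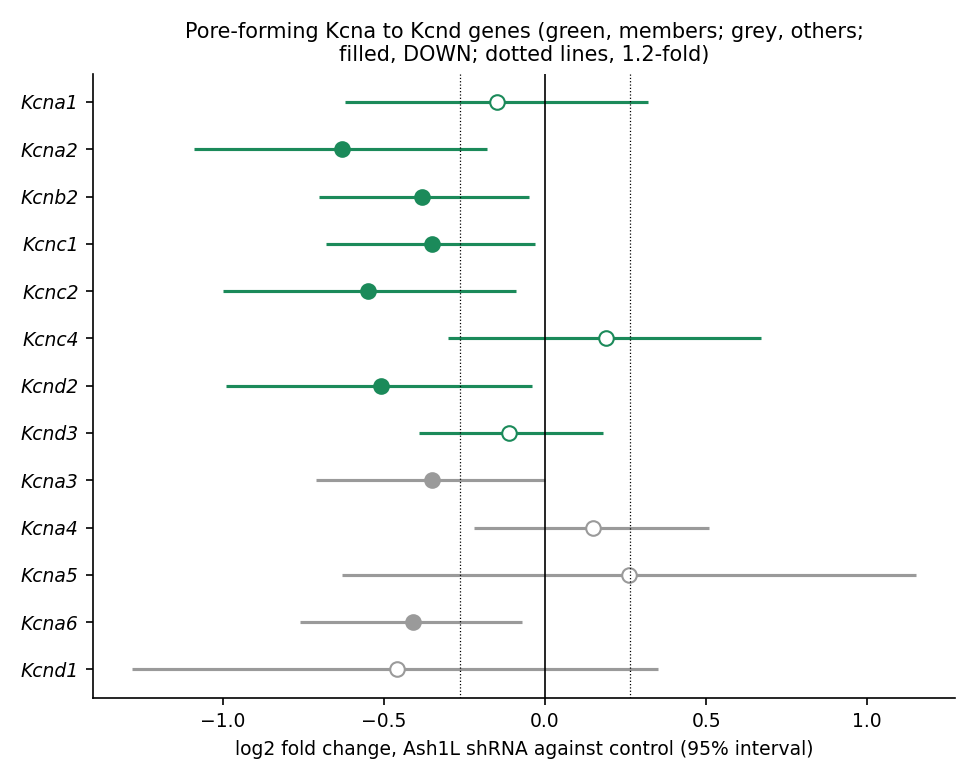
The horizontal axis is the log2 fold change of Ash1L shRNA against control with its 95% interval, for the 8 Kv members (green) and the 5 other pore-forming Kcna to Kcnd genes that were tested (grey). Filled points were DOWN, and dotted lines mark a 1.2-fold change. Kcna2, Kcnc2 and Kcnd2 lie farthest to the left among the members, and 7 of the 13 points are filled.

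The remaining pore-forming genes were lower in the median as well. Of 7 such genes, 5 were tested, 2 were DOWN and none was UP, against 8.28% and 8.61% of all genes tested. The median log2 fold change of the 5 was -0.35. Kcna3 (Kv1.3) measured 20.1 and 20.2 CPM in the controls and 16.5 and 15.0 CPM in the shRNA samples (log2 fold change -0.35, adjusted P of 0.296), and its unadjusted P was at the limit, so that the call was lost under 7 of 8 alternative settings with all samples and without control 1, control 2 or Ash1L shRNA 2. Kcna6 (Kv1.6) measured 142 and 173 CPM against 126 and 111 CPM (log2 fold change -0.41, adjusted P of 0.262), and an antisense transcript overlaps 39.6% of its exonic length (the call was lost with the replicate block and without control 2 or Ash1L shRNA 2), while whether the counting used strand is not given in the sources used here. Kcna4 (Kv1.4) was at 0.15, Kcna5 (Kv1.5) at 0.26 and Kcnd1 (Kv4.1) at -0.46, with no call in any of them. Kcna7 and Kcna10 were at or near 0 counts (8 counts or fewer in any sample) and were not tested.

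Levels of different genes were compared per kilobase of exon (RPKM, the CPM divided by the exonic length). In the controls the order was Kcna1 (52.1 RPKM), Kcna2 (31.4), Kcnd2 (24.9), Kcnc2 (21.2), Kcnc4 (15.9), Kcnc1 (11.1), Kcnd3 (9.72) and Kcnb2 (3.15), and the values of neighbours in this order did not overlap between the 2 controls. In the Ash1L shRNA samples the order was Kcna1 (46.9 RPKM), Kcna2 (20.2), Kcnc4 (18.0), Kcnd2 (17.4), Kcnc2 (14.5), Kcnd3 (9.04), Kcnc1 (8.63) and Kcnb2 (2.42). Kcnc4 thus moved from below Kcnd2 and Kcnc2 to above them in the means, although the RPKM ranges of Kcna2, Kcnc4, Kcnd2 and Kcnc2 ran into each other in the shRNA samples. These lengths take in all annotated exons, and a transcript that uses fewer of them would have a higher level than stated.

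The summed RPKM of the 15 pore-forming genes was 227 and 216 in the controls and 202 and 162 in the shRNA samples. Within that sum, Kcna genes made up 61.0% in the controls and 61.2% in the shRNA samples, the Kcnc members 21.7% and 22.6%, Kcnb2 1.42% and 1.34%, and Kcnd genes 15.9% and 14.8% (means, n = 2). Kcnd genes were at 15.1% and 16.8% in the controls and 14.8% and 14.9% in the shRNA samples. These did not overlap, but the nearest values of the groups were closer than the 2 controls were to each other. The Kcna and Kcnc shares overlapped between groups. Inside the Kcna family the share of Kcna2 was 14.2% and 14.1% in the controls and 11.9% and 10.2% in the shRNA samples, while that of Kcna1 was 24.4% and 22.5% against 27.5% and 23.5%. Among the Kcnc members the share of Kcnc2 went from 9.07% and 10% to 8.52% and 7.25%, and that of Kcnc4 from 8.33% and 5.96% to 9.57% and 10.3%. Of the 13 tested genes, 6 had shares that did not overlap between groups, lower in the shRNA samples for Kcna2, Kcnb2, Kcnc2 and Kcnd2 and higher for Kcnc4 and Kcna4. Some of these were barely apart, such as Kcnb2 at 1.45% and 1.39% in the controls and 1.29% and 1.38% in the shRNA samples. Expressed relative to the same sum, 57.4% of all genes tested did not overlap.

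A ratio of 2 genes within a sample does not depend on how libraries were scaled. All 28 pairs of members were therefore compared by their raw count ratio in each sample. The ratio did not overlap between groups in 18 of the 28 pairs (64.3%), against 50.7% of the 131033766 pairs that can be formed from tested genes with counts in every sample. The pairs share genes and are not independent. Kcna2 took part in 7 such pairs, all that it can form, and Kcnc4 in 6, whereas Kcnc1 took part in 2. Some of these pairs were barely apart. Kcna2 to Kcnc2 was 2.61 and 2.35 in the controls and 2.32 and 2.34 in the shRNA samples. Kcna2 to Kcnd2 was 3.13 and 2.73 against 2.66 and 2.71.

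The ratio of Kcna1 to Kcna2 was 0.691 and 0.638 in the controls and 0.931 and 0.929 in the shRNA samples. The 2 shRNA samples were nearly equal here, although they differed in the level of each gene. Kcnc1 to Kcnc4 was 1.64 and 2.02 in the controls and 1.21 and 1.26 in the shRNA samples. Kcnc2 to Kcnc4 likewise went from 2.12 and 3.28 to 1.73 and 1.37. Both Kv3 ratios to Kcnc4 were thus lower in each shRNA sample than in each control. By contrast, Kcnc1 to Kcnc2 (0.773 and 0.615 against 0.698 and 0.923) and Kcnd2 to Kcnd3 (1.30 and 1.46 against 1.32 and 0.785) overlapped. Kcnc2 to Kcnd2 was 1.2 and 1.16 in the controls and 1.14 and 1.16 in the shRNA samples, so these genes of different families moved almost in parallel, and the pair counts among the 18 by less than the last digit given. With 2 samples against 2, the smallest two-sided P that an exact permutation test can give is 0.333, so no test was made of these ratios.

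**Figure D3:**
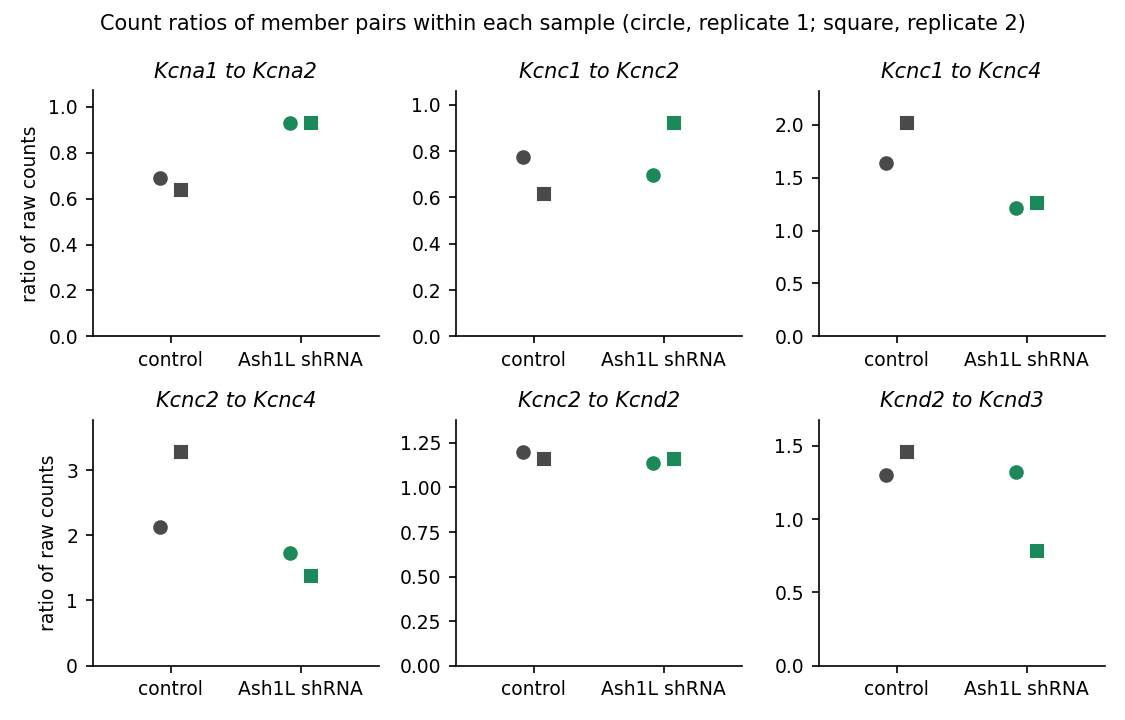
Each panel plots the ratio of raw counts of 2 Kv members within each sample (vertical axis, from 0), with controls in grey, Ash1L shRNA samples in green, circles for replicate 1 and squares for replicate 2. Kcna1 to Kcna2 is higher in both shRNA samples (0.931 and 0.929) than in both controls, Kcnc1 and Kcnc2 to Kcnc4 are lower, and Kcnc2 to Kcnd2 stays between 1.14 and 1.2.

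Silent Kv subunits form no channel alone and modify Kv2 channels when they join them. Of 10 tested, 1 was DOWN and 2 were UP, against 8.28% and 8.61% of all genes tested. The median log2 fold change of the 10 was -0.24. Kcnf1, the most abundant of them by count, was DOWN (log2 fold change -0.33, adjusted P of 0.262) with 189 and 204 CPM in the controls and 162 and 149 CPM in the shRNA samples. That call was lost under pan-neuronal scaling, with the replicate block and without control 1, control 2 or Ash1L shRNA 2. Kcng4 was UP at a log2 fold change of 1.00 (adjusted P of 0.266), from 13.8 and 6.44 CPM to 20.9 and 18.6 CPM. Its estimate ran from 0.51 without control 2 to 1.63 without control 1, and the call was lost without control 2 and without either shRNA sample. Kcnv2 was UP at 1.98, on 2 and 4 counts in the controls and 13 and 11 counts in the shRNA samples, so that its size is uncertain, and the call was lost in DESeq2 and whichever library was left out. Kcnv1 (log2 fold change -0.26) and Kcns2 (log2 fold change -0.08), the next in count, had no call, and Kcng3 was at the low end of the list with -0.39.

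Auxiliary subunits bind the pore-forming subunits and set their gating, inactivation and place in the membrane. Of 12 tested, 2 were DOWN and none was UP, against 8.28% and 8.61% of all genes tested. The median log2 fold change of the 12 was 0.08. Kcnip2 (KChIP2, a calcium-binding partner of Kv4 channels) was DOWN at -0.57 (adjusted P of 0.258), with 71.1 and 65.1 CPM in the controls and 52.1 and 39.7 CPM in the shRNA samples. Amigo1, an adhesion protein that binds Kv2 channels, was DOWN at -0.59 (adjusted P of 0.253), with 108 and 107 CPM against 79.1 and 64.1 CPM. Amigo1 stayed DOWN under every alternative, and Kcnip2 lost its call without control 1. In both genes the 2 groups were apart, and Ash1L shRNA 2 was again the lower sample. The Kv4 partners Dpp6 and Dpp10 were at 0.15 and -0.17, the Kv4 partner Kcnip3 at 0.33 and the Kv1 partner Kcnab2 at -0.09, with no call in any of these 4. Kcne4 was at the high end with 1.03 and no call.

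Proteins that gather Kv1 channels at the axon or the synapse made up another list. Of 11 tested, 4 were DOWN and none was UP, against 8.28% and 8.61% of all genes tested. The median log2 fold change of the 11 was -0.19. Cntn2 (TAG-1, a juxtaparanodal adhesion protein) was at -0.28, Lgi1 (a secreted synaptic protein and epilepsy gene) at -0.45, Lgi3 (a related secreted protein) at -0.42 and Dlg1 (SAP97, a membrane scaffold) at -0.36, and all 4 were DOWN with adjusted P between 0.260 and 0.280. Cntn2 lost its call in DESeq2, under library-size and pan-neuronal scaling, with the replicate block and in 3 of 4 fits without 1 library (all but that without Ash1L shRNA 2). Dlg1 lost its call with the block and the length offset, and both Dlg1 and Lgi3 lost theirs without control 1, control 2 or Ash1L shRNA 2, while Lgi1 lost its call without control 2. The more abundant Adam22 (-0.09), Dlg2 (0.05) and Dlg4 (-0.11) had no call.

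Markers of several cell types moved with the Kv members, and in bulk tissue fewer cells of a type and less RNA per cell cannot be told apart. A list of 8 genes stood for fast-spiking interneurons, though not all of them are restricted to these cells. Of these 8, 4 (Pvalb, Syt2, Lhx6 and Erbb4) were DOWN, against 8.28% of all genes tested. All 8 had negative estimates, at a median log2 fold change of -0.51. Their summed level was 237 and 226 CPM in the controls and 182 and 142 CPM in the shRNA samples. Pvalb, the calcium-binding protein that defines these cells, was at 43.1 and 32.5 CPM in the controls and 23.6 and 16.7 CPM in the shRNA samples (log2 fold change -0.90, adjusted P of 0.253). Pvalb stayed DOWN under every alternative, whereas Syt2 lost its call under pan-neuronal scaling and without control 1 or Ash1L shRNA 2, Lhx6 without control 1 or control 2, and Erbb4 without control 2. The count ratio of Kcnc1 to Pvalb was 2.64 and 2.93 in the controls and 3.63 and 4.65 in the shRNA samples, so Pvalb was lower in proportion than Kcnc1. Kcnc2 to Pvalb was 3.41 and 4.77 against 5.21 and 5.04. Among pairs of tested genes with counts in every sample, 50.7% had ratios that did not overlap between groups. Pvalb had the most negative estimate of this list, and ratios to its other markers were not formed. No marker of this list was at 0 in any sample, and Tac1, at -0.09, was the nearest of them to no change. The part of these cells in the values of Kcnc1 and Kcnc2 was not tested.

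Other markers of inhibitory neurons were called in 1 of 9 cases (Sst at -0.62, DOWN), at a median log2 fold change of -0.18. The background for this and the following cell type lists is 8.28% DOWN and 8.61% UP of all genes tested. The GABA-synthesizing enzymes Gad1 (-0.18) and Gad2 (0.28) had no call. The call of Sst was lost under pan-neuronal scaling, with no filter and without control 1, control 2 or Ash1L shRNA 2, and its estimate ran from -1.06 without Ash1L shRNA 1 to -0.29 without Ash1L shRNA 2. Of 10 markers of excitatory neurons, 5 were DOWN and none was UP, at a median of -0.42, with summed levels of 2924 and 3413 CPM in the controls and 2673 and 2177 CPM in the shRNA samples. Of 12 markers shared by neurons none was called, and their median was -0.06. Astrocyte markers were DOWN in 7 of 10 cases at a median of -0.65 and oligodendrocyte markers in 2 of 10 at -0.26. The astrocyte markers without a call were Gfap (0.00), Aqp4 (0.11) and S100b (-0.27). Endothelial markers had 1 UP of 10 at 0.10. Microglia markers were called in 0 of 10 cases at a median of -0.12, but this median hides a split between replicates. Relative to the controls, their median log2 differences were 0.36 for replicate 1 and -0.84 for replicate 2 of the shRNA group. Summed microglia levels were 897 and 924 CPM in the controls, 1185 CPM in Ash1L shRNA 1 and 478 CPM in Ash1L shRNA 2. Markers of striatal neurons, which lie outside the cortex, had 2 UP and 1 DOWN of 5 tested at a median of 0.63, with summed levels of 73.0 and 87.1 CPM in the controls and 81.9 and 143 CPM in the shRNA samples. How far the calls of the excitatory, astrocyte, oligodendrocyte, endothelial and striatal markers held under the alternatives is not given here. The part of any of these cell types in the Kv values was not tested.

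**Figure D4:**
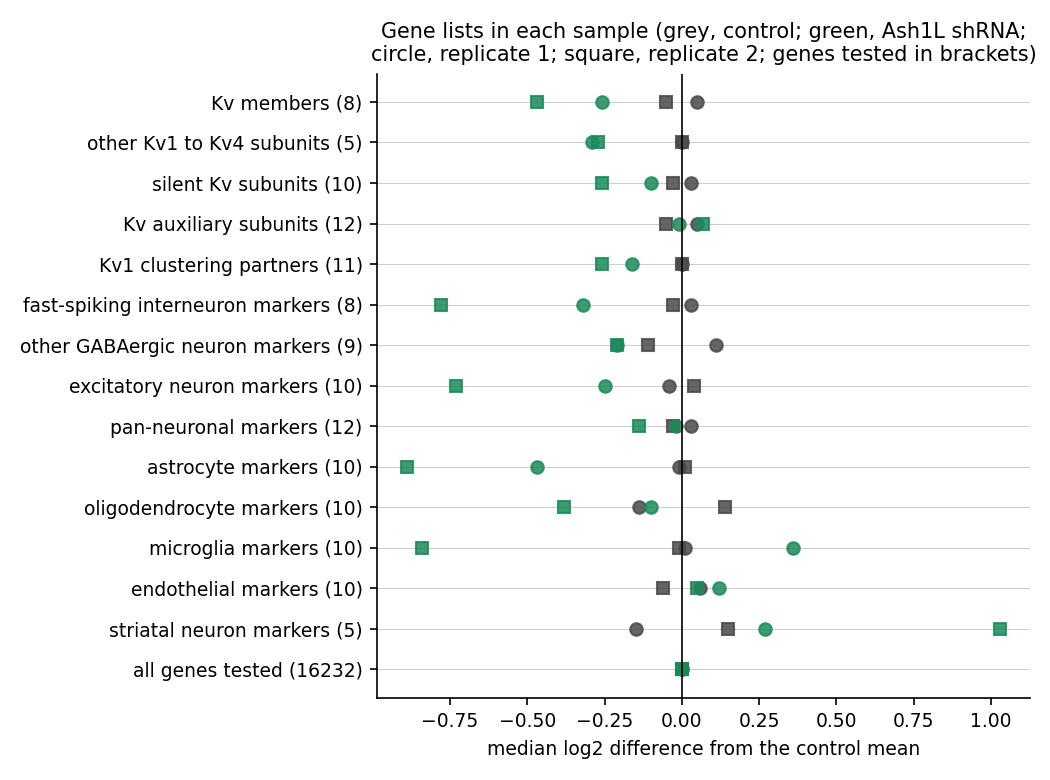
Each row is a gene list with the number of genes tested in brackets, and the horizontal axis is the median log2 difference of its genes from the control mean in each sample (grey, controls; green, Ash1L shRNA; circles, replicate 1; squares, replicate 2). The Kv members lie at -0.26 and -0.47 in the shRNA samples, against -0.32 and -0.78 for the fast-spiking, -0.25 and -0.73 for the excitatory and -0.47 and -0.89 for the astrocyte markers, and -0.02 and -0.14 for the pan-neuronal markers.

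Scaling the libraries to the 12 pan-neuronal markers instead of to all genes moved the median of all genes by 0.07 on the log2 scale. Under that scaling 3 members stayed DOWN (Kcna2 at -0.57, Kcnc2 at -0.48 and Kcnd2 at -0.45), and Kcnb2 (-0.31) and Kcnc1 (-0.29) lost their calls. The direction of each member was the same under the 8 alternative settings that used all 4 samples.

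Single libraries carried much of these counts. Without control 1 no member was DOWN and Kcnc4 was UP at 0.49. Without control 2 the DOWN members were Kcna2 and Kcnc1, and without Ash1L shRNA 2 they were Kcna2 and Kcnc2. Without Ash1L shRNA 1 there were 6, with Kcna1 added. The estimates of Kcna2 ranged from -0.94 to -0.39 over these fits, those of Kcnc2 from -0.85 to -0.30 and those of Kcnd2 from -0.83 to -0.25, so that their sign did not depend on 1 library but their size did.

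**Figure D5:**
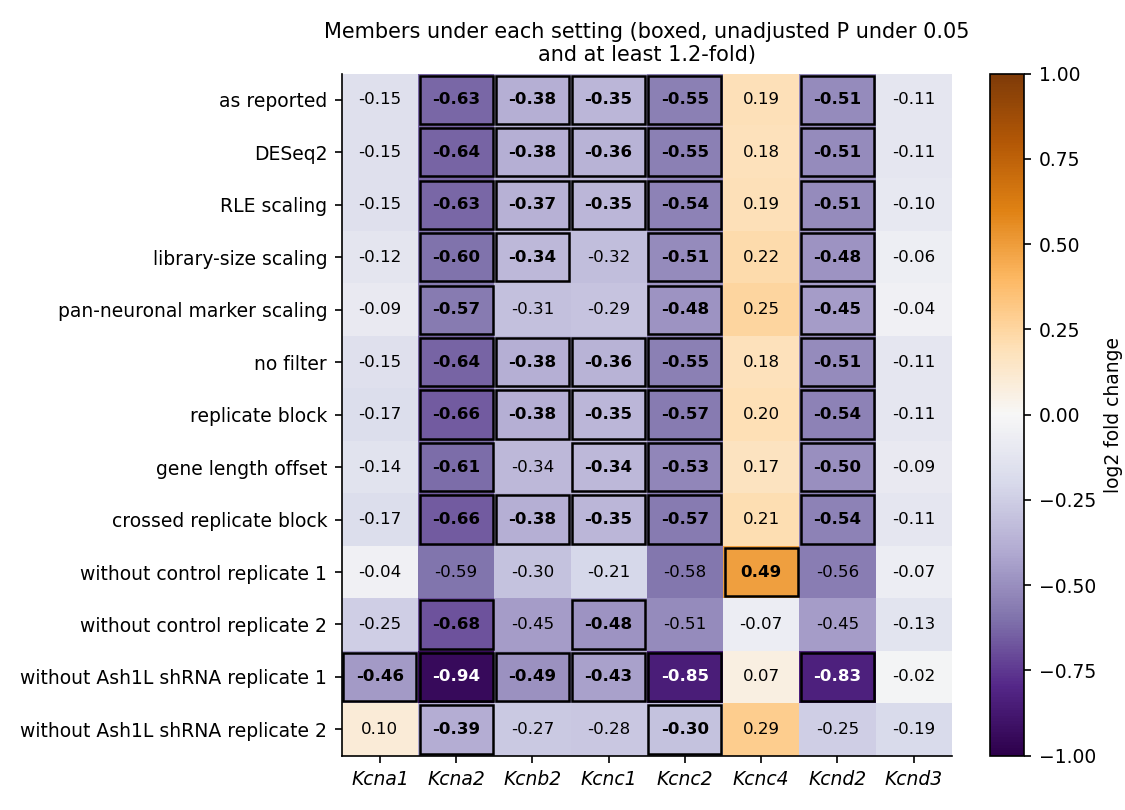
Each cell gives the log2 fold change of a Kv member (columns) under a setting of the analysis (rows), coloured by value, and boxed cells have an unadjusted P below 0.05 and a change of at least 1.2-fold. The first row holds the reported values with 5 boxes, the row without control replicate 1 holds 1 box (Kcnc4, 0.49), and the row without Ash1L shRNA replicate 1 holds 6.

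Promoter sequence is shown because 4 of the DOWN members and 2 of the others had an entry of 300 bases in the RefSeq promoter table for GRCm38.p6. Kcna1 and Kcnb2 had no entry. The start sites of that table are not those of GENCODE in every gene, and the windows of Kcna2 and Kcnc4 lie wholly inside the GENCODE span of the gene, so they are not printed. CpG dinucleotides, which are in capitals below, tell CpG-island promoters from CpG-poor ones. The windows are, in order, Kcnc1 at chr7:46396218-46396517, Kcnc2 at chr10:112270871-112271170, Kcnd2 at chr6:21215096-21215395 and Kcnd3 at chr3:105451640-105451939, all on the plus strand, of which 21, 50, 0 and 0 bases lie inside the GENCODE span.
Kcnc1: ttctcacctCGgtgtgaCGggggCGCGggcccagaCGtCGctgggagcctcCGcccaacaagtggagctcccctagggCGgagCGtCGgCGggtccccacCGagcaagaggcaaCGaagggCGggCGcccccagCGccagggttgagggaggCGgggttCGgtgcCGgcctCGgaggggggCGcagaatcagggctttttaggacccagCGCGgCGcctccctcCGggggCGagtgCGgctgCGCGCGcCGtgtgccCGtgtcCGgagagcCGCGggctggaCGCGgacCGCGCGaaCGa
Kcnc2: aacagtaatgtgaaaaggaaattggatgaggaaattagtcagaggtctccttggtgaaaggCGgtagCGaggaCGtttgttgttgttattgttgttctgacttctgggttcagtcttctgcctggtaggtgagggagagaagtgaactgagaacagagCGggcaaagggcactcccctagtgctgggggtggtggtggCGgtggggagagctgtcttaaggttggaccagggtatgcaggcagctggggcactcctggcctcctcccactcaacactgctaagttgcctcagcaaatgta
Kcnd2: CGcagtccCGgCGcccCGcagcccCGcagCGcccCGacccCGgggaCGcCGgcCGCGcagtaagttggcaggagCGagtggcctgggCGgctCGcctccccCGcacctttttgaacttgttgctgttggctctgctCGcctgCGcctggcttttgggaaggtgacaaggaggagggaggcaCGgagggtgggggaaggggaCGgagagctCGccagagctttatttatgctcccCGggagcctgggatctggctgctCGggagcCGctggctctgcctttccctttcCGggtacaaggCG
Kcnd3: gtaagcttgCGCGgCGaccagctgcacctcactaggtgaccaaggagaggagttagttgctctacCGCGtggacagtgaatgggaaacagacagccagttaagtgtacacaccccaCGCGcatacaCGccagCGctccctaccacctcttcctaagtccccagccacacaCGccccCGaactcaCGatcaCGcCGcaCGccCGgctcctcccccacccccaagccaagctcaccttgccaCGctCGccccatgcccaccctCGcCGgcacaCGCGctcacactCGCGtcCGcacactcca

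The 4 DOWN members with an entry did not share a CpG class, and Kcnb2 could not be classed. The values of Kcna2 and Kcnc4 below describe windows inside the GENCODE span of the gene, which may not be promoters. The count of CpG dinucleotides in 300 bases was 41 in Kcnc1, 31 in Kcna2 and 26 in Kcnd2, but between 3 and 6 in the 4 windows of Kcnc2. Of the members without a call, Kcnd3 had 25 and Kcnc4 had 17. The median over 32851 RefSeq promoters was 7. The letters GGGCGG, an SP1 box, were found on either strand 3 times in Kcnc1, once each in Kcna2, Kcnd2 and Kcnc4, in 1 of 4 windows of Kcnc2 and not in Kcnd3, and 35.7% of all promoters hold them. The CRE TGACGTCA was found in none of the 6 members' windows (1.80% of all promoters), and the shorter TGACG, which lies within the CRE, was found in Kcnc1 and Kcnc4 (20.8%). A match of letters describes the window and is not a binding site.

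The genes outside these lists whose profile over the 4 samples came nearest to the median of the members, by the root mean square difference of centred log2 CPM among 5439 genes at least as abundant as Kcnb2, were Cyhr1 (0.016), Syne1 (0.017), Cxx1b (0.022) and Sept3 (0.024). Of these, Cyhr1 and Sept3 were DOWN at -0.35 and -0.36, and Syne1 and Cxx1b were at -0.35 and -0.32 with no call. Cyhr1 and Sept3 lost their calls without control 1, control 2 or Ash1L shRNA 2, and Cyhr1 also under library-size and pan-neuronal scaling and the length offset. Among the members, Kcnb2 was nearest to that median (0.037) and Kcnc4 was farthest from it (0.309). In all, 19 of the 5439 genes lay as near as Kcnb2 or nearer. Both numbers take in Kcnb2 itself and any genes of the lists.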

How the data were processed

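RNA-seq of the PFC gave 1 table of gene counts per sample. Per the labels and the study's methods, the authors aligned reads to mm10 with STAR and deposited raw featureCounts counts per gene symbol. The label protocol also names other trimming and alignment tools. Strand and multiple-mapping settings are not given in the sources used here. Counts as deposited were tested with edgeR 4.0.16 (TMM scaling, default low-count filter, quasi-likelihood test with robust dispersion, Benjamini-Hochberg adjustment over 16232 genes) in R 4.3.3. DESeq2 1.42.0, other scalings, no filter, a replicate block, a length offset and each sample left out were alternatives. DOWN and UP follow the study's limits of unadjusted P below 0.05 and 1.2-fold. CPM used TMM-scaled library sizes, and RPKM used exonic lengths of GENCODE vM21, which matched 93.0% of symbols. The fitting was tested on simulated data. Totals of 14251190 to 35764874 counts limit the precision less than the 2 samples per group do. Named genes were all members, the other pore-forming genes, and from each other list the abundant or called genes and the ends of its range, plus the 4 nearest profiles. Members, lists and limits were chosen with earlier results of these data known. All pairs of members were added after the counts were seen. Same-numbered samples share only a number, and their pairing was checked from the correlation of deviations. Some genes of the lists are not reported here and were left out of the list counts, sums and shares.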

Additional observations from a re-analysis of the deposited data

How the results depend on the processing

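With the labels' replicate numbers as a block, 5 Kv members were DOWN, as without it, and 0 genes passed the adjusted limit. The deviations of same-numbered samples correlated at -0.11, and the pairing is by number alone. A crossed block, added after seeing the data, also gave 5 DOWN members and 16 genes at the adjusted limit. Among the named genes the block ended 5 calls and added 1. Pan-neuronal scaling left 3 members DOWN and ended 8 calls among the named genes. Leaving out 1 sample at a time gave 0 to 6 DOWN members, 306 to 2718 DOWN and 423 to 2368 UP genes, and 0 to 2502 genes at the adjusted limit, with the assumption that a lone sample varies like the other group. At the adjusted limit DESeq2 gave 420 genes and no filter gave 34. Some genes without a call changed sign when 1 sample was left out, and their log2 fold changes over the 4 such fits ranged from -0.46 to 0.10 for Kcna1, -0.07 to 0.49 for Kcnc4, -0.02 to 0.30 for Kcna4, -0.11 to 0.67 for Kcna5, -0.32 to 0.13 for Kcns2, -0.23 to 0.08 for Kcnab2 and -0.49 to 0.23 for Tac1, and for Dlg2 the lowest was -0.00. The members' median log2 fold change stayed negative throughout. The causes were not tested.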
